A study of Mus musculus with 6 samples.

Results

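Nes, Pax6, Sox1, Tubb3, Map2, Msi1, Neurog1, Fabp7 and Hes5, 9 genes of the neural lineage, were followed in undifferentiated mouse induced pluripotent stem cells (iPSCs), before any neural differentiation. The members are a list of named genes, set by name and not by a cut on a measured value. Earlier results of these data were known when this list and the related lists below were chosen. Every probe set whose array annotation names 1 member alone was taken. This gave 23 of the 45037 probe sets on the array, between 1 and 5 for a gene, and 9 of its 18193 genes. No probe set named a member together with another gene. The study compared 3 (−)/(+) iPSC clones, numbered 1 to 3 here, with 3 (+)/(+) iPSC clones, numbered 4 to 6, with 1 Affymetrix array for each clone. All 6 clones were derived from Nanog-GFP-IRES-Puro transgenic mouse embryonic fibroblasts infected with retroviruses carrying Oct3/4, Sox2, Klf4, c-Myc and dsRed, plated on SNL feeder cells with LIF and serum, and all were kept after colony picking in 3i, that is CHIR99021 against GSK3, PD184352 against MEK and SU5402 against the FGF receptor. The (+)/(+) clones had also received 3i during reprogramming, whereas the (−)/(+) clones had not. Each group was thus 3 clones of 1 reprogramming design, and whether feeder cells were removed before the array RNA was taken is not given in the sources used here. The study later turned such clones into neurospheres, measured Nestin (Nes) and Pax6 in them by quantitative PCR, and stained their progeny for βIII-tubulin (Tubb3) and GFAP. Between the groups it reported no significant difference in Nestin or Pax6 in primary neurospheres, and significant ones in secondary and tertiary neurospheres. It also reported more astrocytes from (+)/(+) than from (−)/(+) neurospheres at every passage. Those differentiated samples are not analysed here, and the arrays describe the state from which they started. From these and earlier arrays the study concluded that (+)/(+) iPSCs were undifferentiated and not shifted toward neural stem cells.

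Neural tissue arises when pluripotent cells leave the epiblast state and switch on Sox1 and then Pax6, transcription factors of the neural plate and of radial glia. Dividing neural progenitors carry the intermediate filament nestin, the RNA-binding protein Musashi-1 (Msi1) and the fatty acid-binding protein Fabp7, and Notch signalling keeps them undifferentiated through targets such as Hes5. Proneural factors such as Neurog1 oppose Notch and start neurogenesis, after which young neurons assemble the neuronal β-tubulin Tubb3 and the microtubule-associated protein Map2. The FGF and ERK signals that 3i blocks are among those that pluripotent cells use to enter lineages.

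Of the 9 members, 4 (Pax6, Sox1, Fabp7 and Hes5) were below the filter on low signals on all their probe sets, and 5 (Tubb3, Neurog1, Msi1, Nes and Map2) had 1 probe set each that was bright enough to test. None of the 5 tested members differed between (+)/(+) and (−)/(+) iPSCs at an adjusted p under 0.05 in limma, against 3.12% of all 22518 tested probe sets (1.35% higher and 1.77% lower). By unadjusted limma p, 1 of the 5, Map2, was under 0.05, against 21.2% of all tested probe sets. Map2 was lower in all 3 (+)/(+) clones than in any (−)/(+) clone, and its call did not survive adjustment. Log2 differences are those of MAS 5.0 signal + 16, (+)/(+) minus (−)/(+). The limma p-values set a difference against the spread between these clones, moderated over the probe sets fitted. In RNA from a whole culture, fewer cells of a type and less RNA per cell cannot be told apart.

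The start regions of 8 of the 9 genes were held by the RefSeq promoter table (GRCm38.p6, from 250 bases before to 50 bases after the annotated start), and Msi1 was not among them. The Hes5 region (chr4:154960673-154960972, plus strand) is shown first because Hes5 was named above as a target of Notch signalling. Capitals mark the motif TTCCCAC, or GTGGGAA on the other strand, the letters that the Notch partner RBPJ is known to bind.
Hes5: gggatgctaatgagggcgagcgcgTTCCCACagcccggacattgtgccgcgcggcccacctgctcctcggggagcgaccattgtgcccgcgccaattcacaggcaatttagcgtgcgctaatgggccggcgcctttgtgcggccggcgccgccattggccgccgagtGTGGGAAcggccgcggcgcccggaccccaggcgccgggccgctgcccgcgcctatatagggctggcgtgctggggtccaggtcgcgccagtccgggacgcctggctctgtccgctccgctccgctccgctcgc
The motif was matched at 226 and at 83 bases before the start of Hes5 and in no other member window, whereas 6.38% of the 32851 windows of all genes held it on either strand. The regions of Tubb3 (chr8:123411303-123411602, plus strand), a member bright enough to test, and of Fabp7 (chr10:57784673-57784972, plus strand), a member that was not, are shown with each CG in capitals.
Tubb3: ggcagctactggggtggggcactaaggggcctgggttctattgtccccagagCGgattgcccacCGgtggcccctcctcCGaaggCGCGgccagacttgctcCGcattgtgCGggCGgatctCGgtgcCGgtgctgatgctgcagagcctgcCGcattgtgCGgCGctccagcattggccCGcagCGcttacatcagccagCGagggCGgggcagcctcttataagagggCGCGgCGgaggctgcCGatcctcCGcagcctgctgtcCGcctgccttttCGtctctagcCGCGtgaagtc
Fabp7: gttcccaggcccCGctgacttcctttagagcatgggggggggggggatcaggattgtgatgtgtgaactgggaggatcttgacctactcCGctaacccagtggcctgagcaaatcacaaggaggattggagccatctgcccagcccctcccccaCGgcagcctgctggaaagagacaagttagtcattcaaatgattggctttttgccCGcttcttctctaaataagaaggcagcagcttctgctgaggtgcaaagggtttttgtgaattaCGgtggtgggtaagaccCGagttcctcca
The Tubb3 window held 26 CG dinucleotides, the Fabp7 window 6 and the Hes5 window 41, against a median of 7 over all windows. Of the 9 member windows (Pax6 had 2), 8 lay above that median, Fabp7 being the exception. Passing the filter did not follow CG number in these windows, since Sox1 with 37 and Hes5 with 41 were below the filter while Nes with 18 was above it. A match of letters describes a window and says nothing of binding or methylation in these clones.

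**Figure D1:**
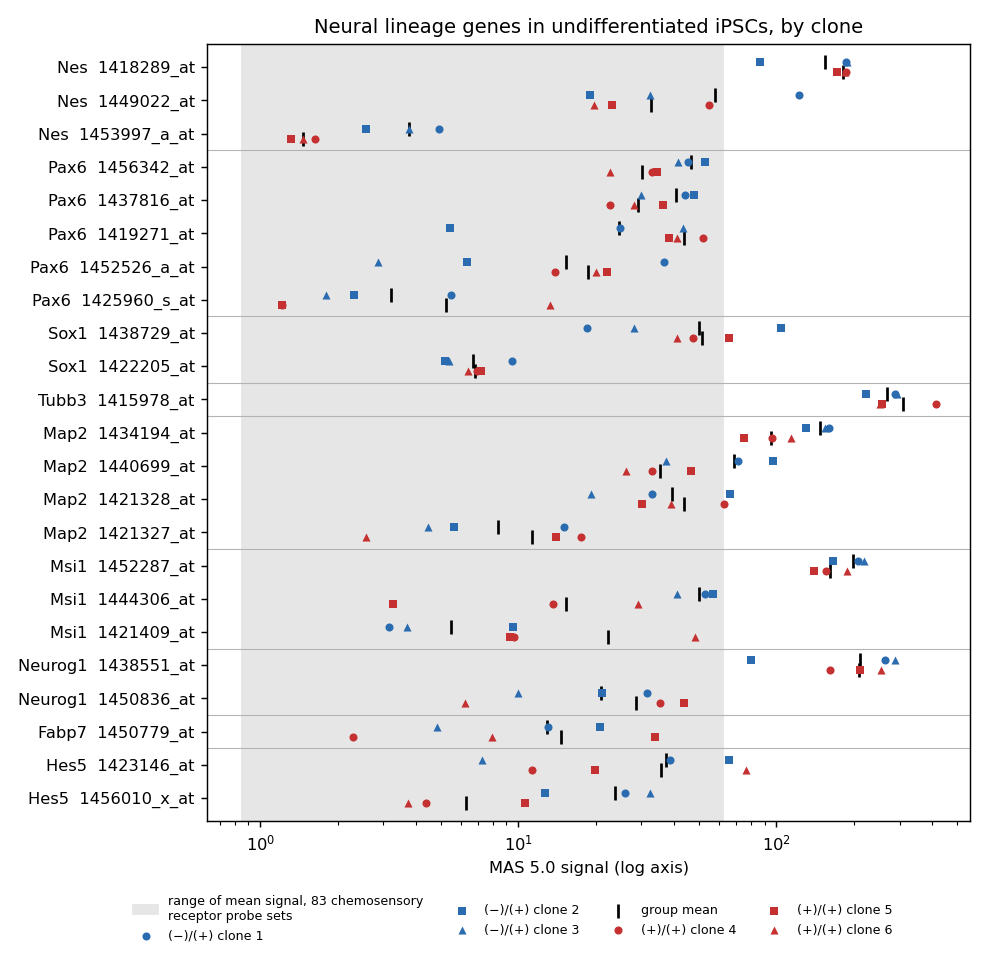
MAS 5.0 signal (log axis) of the 23 probe sets of the 9 neural lineage genes in 3 (−)/(+) clones (blue) and 3 (+)/(+) clones (red), with group means as black ticks. The grey band is the range of mean signal of 83 chemosensory receptor probe sets (0.851 to 62.3), and 5 member probe sets had a mean above it.

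How low these signals were was gauged by probe sets for olfactory, vomeronasal and taste receptors, genes of sensory neurons and taste cells that pluripotent cells are not known to use. The 83 such probe sets, of 74 genes, had a median mean signal of 13.4, a 95th percentile of 45.1 and a highest value of 62.3, and 0 of them reached the filter, which lay near the median of all probe sets (69.96). Of the 23 member probe sets, 15 were at or under that 95th percentile, 3 lay between it and the highest receptor, and 5 were above every receptor. Those 5 were the tested probe sets of Tubb3, Neurog1, Msi1, Nes and Map2, at the 59.0th to 71.1st percentile of all probe sets. The plot of signals by clone shows the other 18 within the receptor range by their means, although single clones rose above it, clone 2 for Sox1 and clone 1 for Nes among them. As a reference for the cells, the pluripotency genes Pou5f1 and Sox2 had signals of 8034 to 9793 and of 13222 to 16017 over the 6 clones, and 0 of 8 genes of a pluripotency list were called. Nanog, whose reporter was used to pick colonies, was 14402, 12676 and 13966 in (−)/(+) clones and 15744, 16347 and 15986 in (+)/(+) clones, without overlap, at a limma adjusted p of 0.129.

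Sox1, the earliest of these factors in the neural plate, was near the receptor background on both of its probe sets. Probe set 1438729_at read 18.5, 104 and 28.1 in (−)/(+) clones and 47.5, 65.4 and 41.1 in (+)/(+) clones. Clone 2 stood highest and clone 1 lowest, so that the (−)/(+) clones spanned the whole range and enclosed the other group. The second probe set, 1422205_at, read between 5.19 and 9.42 in all clones. Neither passed the filter, and when all probe sets were fitted the differences were 0.23 (95% interval -0.77 to 1.23) and 0.01 (-0.46 to 0.49).

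Pax6, which drives neural plate, eye and radial glial fates, had 5 probe sets, none of them above the filter and none with a mean above 38.4. The brightest, 1456342_at, read 45.3, 53.1 and 41.7 in (−)/(+) clones and 32.9, 34.6 and 22.7 in (+)/(+) clones. All 3 (+)/(+) clones were below all 3 (−)/(+) clones there, with a difference of -0.45 (-1.05 to 0.15) in the fit without a filter. Probe set 1419271_at went the other way, with 24.7, 5.42 and 43.4 against 52.0, 38.3 and 41.3, and its groups overlapped through clone 3. The differences of the 5 Pax6 probe sets ran from -0.45 to 0.68, 2 below zero and 3 above, and the 95% interval of each included zero. The probe sets of Pax6 thus gave no common direction.

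Nestin, the intermediate filament of neural progenitors, was measured by 3 probe sets. The tested one, 1418289_at, read 186, 86.8 and 188 in (−)/(+) clones and 186, 172 and 184 in (+)/(+) clones. Clone 2 was low and the other 5 clones lay within 172 to 188. The log2 difference was 0.28 (SE 0.26, 95% interval -0.29 to 0.85, limma adjusted p = 0.562), and without clone 2 it was -0.05. Probe set 1449022_at read 123, 19.0 and 32.3 against 55.0, 23.0 and 19.6, with clone 1 far above the rest. The last, 1453997_a_at, read 4.92 or less in every clone, lower in all (+)/(+) clones than in any (−)/(+) clone at a level where the receptor probe sets also lie.

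Msi1, an RNA-binding protein of dividing progenitors, had a tested probe set, 1452287_at, at 208, 166 and 218 in (−)/(+) clones and 156, 139 and 187 in (+)/(+) clones. Clones 5 and 4 were lowest, and clone 6 lay above clone 2, so that the groups overlapped. The difference was -0.27 (SE 0.18, 95% interval -0.67 to 0.13, limma adjusted p = 0.423). The dim probe set 1444306_at read 52.7, 57.0 and 41.1 against 13.7, 3.27 and 29.0, with no overlap and a difference of -1.16 (-1.93 to -0.38). This was the largest difference in size among the member probe sets, yet the adjusted p over all 45037 probe sets was 0.179, and the mean of 32.8 was within the range of the receptors. The third probe set, 1421409_at, pointed upwards (0.70, -0.13 to 1.54) with 3.14, 9.54 and 3.71 against 9.60, 9.26 and 48.2, with clone 6 far above the others.

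Fabp7, a fatty acid-binding protein of radial glia, had a single probe set that read 13.1, 20.8 and 4.84 in (−)/(+) clones and 2.29, 33.8 and 7.91 in (+)/(+) clones. Its highest and lowest values were both in (+)/(+) clones, and the difference was -0.01 (-0.89 to 0.86). Hes5, a Notch target whose start region is printed above, read 38.8, 65.8 and 7.24 against 11.3, 19.8 and 76.3 on 1423146_at. Clones 2 and 6, 1 of each group, stood highest there, and the difference was -0.07 (-1.31 to 1.17). Its second probe set, 1456010_x_at, read 25.96, 12.6 and 32.5 against 4.40, 10.6 and 3.73, lower in every (+)/(+) clone, with a difference of -0.81 (-1.45 to -0.18) and an adjusted p of 0.236 in limma over all probe sets. The brighter Hes5 probe set did not share that separation.

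Neurog1, a proneural transcription factor of sensory and cranial neurogenesis, read 265, 80.0 and 289 in (−)/(+) clones and 161, 211 and 255 in (+)/(+) clones on its tested probe set, 1438551_at. Clone 2 was the lowest by far, the same clone that was low for the tested Nes probe set, and the remaining (−)/(+) clones were the highest of the 6. The difference was 0.14 (SE 0.38, 95% interval -0.71 to 0.98, limma adjusted p = 0.869), and without clone 2 it became -0.40 with an adjusted p of 0.336. The other probe set, 1450836_at, read 31.7, 21.1 and 9.95 against 35.5, 43.8 and 6.19, and clone 6 was below all others. Neurog1 had the widest 95% interval of the 5 tested members.

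Map2, which stabilises microtubules in neuronal dendrites, had the lowest unadjusted p of the tested members. Its tested probe set, 1434194_at, read 159, 131 and 155 in (−)/(+) clones and 96.2, 74.98 and 114 in (+)/(+) clones, means of 148 ± 15.3 and 95.04 ± 19.5 (SD, n = 3). Every (+)/(+) clone was below every (−)/(+) clone, as was so in 1 direction or the other for 27.1% of all tested probe sets. The difference was -0.58 (SE 0.20, 95% interval -1.02 to -0.13), with an unadjusted limma p of 0.0159 and an adjusted p of 0.138. The exact two-sided permutation p was 0.1, the smallest that 3 against 3 clones can give. Leaving out any 1 clone kept the difference between -0.70 and -0.44. The 3 dimmer probe sets did not share 1 direction, with -0.67 (-1.43 to 0.08), 0.17 (-0.67 to 1.00) and 0.15 (-0.52 to 0.82).

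Tubb3, the neuronal β-tubulin stained in the study's differentiated cultures, had 1 probe set, which read 288, 223 and 293 in (−)/(+) clones and 415, 257 and 253 in (+)/(+) clones. Clone 4 was the highest and clone 2 the lowest, and the other 2 (+)/(+) clones lay between clone 2 and the remaining (−)/(+) clones. The difference was 0.17 (SE 0.21, 95% interval -0.29 to 0.63, limma adjusted p = 0.68). Without clone 4 it was -0.06 with an adjusted p of 0.897, so the sign rested on that clone. Tubb3 and Sox1 lie on chromosome 8 in the RefSeq table, and clone 4 had higher signals over that chromosome as a whole. The 329 chromosome 8 genes with a mean signal above 500 were shifted in clone 4 by a median of 0.41 on the log2 scale from the median of the 6 clones (quartiles 0.26 to 0.54), against -0.05 to -0.01 in the other clones. Tubb3 was shifted by 0.58 in clone 4, a little above the upper quartile, and the 2 Sox1 probe sets by 0.08 and 0.02. What this shift contributes to Tubb3 was not tested beyond leaving clone 4 out.

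**Figure D2:**
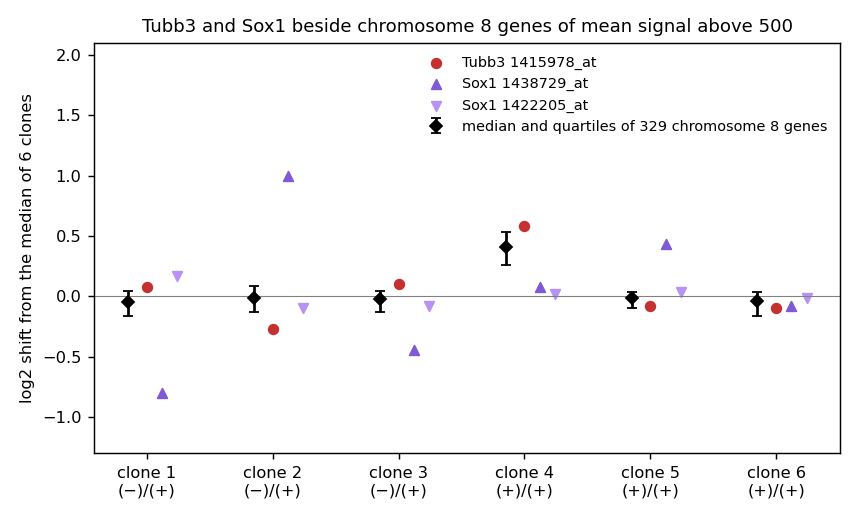
Log2 deviation of the clones from their median over all 6, for Tubb3 (red circles), both Sox1 probe sets (purple triangles) and 329 chromosome 8 genes of mean signal above 500 (black diamonds, median with quartiles). In clone 4 the chromosome 8 median was 0.41 and Tubb3 was 0.58, whereas Sox1 1438729_at was highest in clone 2.

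The genes whose signals followed Tubb3 most closely over the 6 arrays were Bex1 (Pearson r = 0.997), Tom1 (r = 0.992), which also lies on chromosome 8, and Ttpa (r = 0.986). All 3 were highest in clone 4, like Tubb3. With 6 arrays such values are a description, and 32 of 11176 genes had an r above 0.95. Bex1 is a small protein abundant in brain, Tom1 a protein of endosomal sorting and Ttpa the vitamin E transfer protein. The other β-tubulins gave no call in 5 tested genes of 7, and Tubb5, the broadly used form, read 15515 to 18078 with a difference of 0.00 (limma adjusted p = 0.982).

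**Figure D3:**
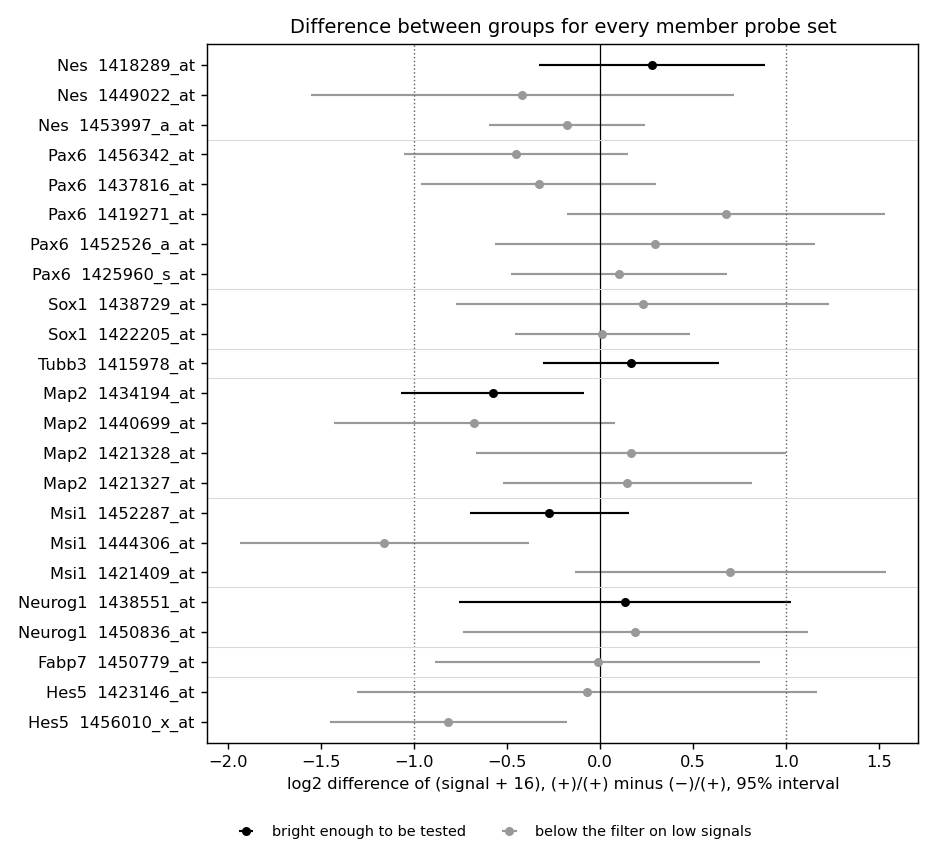
Log2 difference of signal + 16, (+)/(+) minus (−)/(+), for the 23 member probe sets with 95% intervals from the limma fit to all probe sets (3 clones per group). Black points passed the filter and grey points did not, dotted lines mark 2-fold, and 3 intervals exclude zero, those of Map2 1434194_at, Msi1 1444306_at and Hes5 1456010_x_at, all below it.

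Over the 23 probe sets, 11 differences were negative and 12 positive, with a median of 0.01 against -0.07 for all probe sets on the array. The groups did not overlap in 5 of them (21.7%), against 20.1% of all probe sets, so the share was near the background. All 5 were lower in (+)/(+) clones, where 12.9% of all probe sets were lower and 7.2% higher without overlap. These were 1 probe set each of Map2, Msi1, Hes5, Pax6 and Nes, and all except that of Map2 were below the filter, where 9.25% of probe sets were lower and 13.1% separated in either direction. After Benjamini-Hochberg adjustment the methods' t-test called 0 of the 5 tested members, against 0.00444% of tested probe sets, and unadjusted it called Map2 alone, against 17.6%. In the fit without a filter, 0 of 23 were called in limma, against 0.491% of all probe sets, the smallest adjusted p being 0.179, and 3 had an unadjusted p under 0.05, against 14.2%. The precision was uneven. In the fit without a filter the 95% interval lay within 2-fold on both sides for 9 of the 23 probe sets, 6 of them below the filter. Among the tested probe sets, that of Map2 passed 2-fold at its lower end and that of Neurog1 (-0.76 to 1.03) at its upper end, and in the fit of tested probe sets alone only that of Map2 did. The offset of 16 narrows the intervals of the dimmest probe sets. On the brighter probe sets of Hes5 and Sox1 and on that of Fabp7 the interval reached close to or past 2-fold on both sides. Differences of nearly that size in either direction thus lay within it. These folds are of signal + 16, not of signal.

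Among 22 further genes of the neural progenitor and early neural plate, 20 were measured and 13 tested. Of these, 0 were higher and 1 was lower, against 1.35% and 1.77% of all tested probe sets. After scaling to a common median 2 were higher, Sox21 and Otx2, and 1 was lower. That scaling called 917 of all 22518 tested probe sets higher and 238 lower, against 305 and 398 in the main fit. The lower gene was Cdh2, N-cadherin, the adhesion molecule of neuroepithelium that mesenchymal cells also carry. It read 258, 208 and 234 in (−)/(+) clones and 119, 82.6 and 97.7 in (+)/(+) clones, with no overlap. The difference was -1.11 (SE 0.19, limma adjusted p = 0.0166), and the call was lost without clone 3, 5 or 6 (adjusted p of 0.0611, 0.0599 and 0.0871), with no filter (0.0513) and with the average of its probe sets (0.0551). Its other tested probe set gave -0.64 with an adjusted p of 0.198. Of the list, 4 genes were lower and 2 higher by unadjusted p under 0.05, against 21.2% of all tested probe sets in either direction and 12.8% lower. The higher pair were Sox21 (0.85, limma adjusted p = 0.0608), a SoxB transcription factor of pluripotent and neural cells, and Otx2 (0.81, limma adjusted p = 0.0608), a factor of epiblast and forebrain. With a common median their adjusted p were 0.0222 and 0.0310. They and the lower genes other than Cdh2 are named here after their values were seen. Otx2 read 111, 129 and 83.4 against 225, 164 and 210.1, so its groups did not overlap. Sox21 without clone 2 had an adjusted p of 0.0319. The lower genes beside Cdh2 were the nuclear receptor Nr2f1, the RNA-binding protein Msi2 and the transcription factor Sox4. Nr2f1 read 199, 203 and 188 against 119, 121 and 117, without overlap (-0.65, limma adjusted p = 0.0567), and was the gene called in place of Cdh2 when the probe sets of a gene were averaged (adjusted p = 0.0490). Msi2, a relative of Msi1, differed by -0.50 (limma adjusted p = 0.125). Sox4 (-0.41, limma adjusted p = 0.0758) had an adjusted p of 0.0414 without clone 1. Its other tested probe sets gave -0.46 and -0.10 (limma adjusted p of 0.157 and 0.758), and the mean of all its probe sets gave -0.05 (limma adjusted p = 0.919).

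Of the Notch pathway around Hes5, 17 of 22 measured genes were tested, 0 were called and 0 reached 0.05 by unadjusted limma p, although 2 did, both higher, by the methods' t-test. Rbpj, which binds DNA for the Notch receptor, read 2912, 3301 and 3212 in (−)/(+) clones and 3012, 3193 and 2958 in (+)/(+) clones. Its difference was -0.04 (SE 0.10, limma adjusted p = 0.849), with the groups overlapping. Id3, an inhibitor of proneural factors, differed by 0.12 and Numb, a Notch antagonist, by 0.02. The differences of the 17 genes ran from -0.38 to 0.30.

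Of 18 measured proneural and neuronal transcription factors, the class of Neurog1, 15 were below the filter and 0 of the 3 tested were called. Eomes, a factor of intermediate progenitors and of mesendoderm, differed by -0.13, Pou4f1, a sensory neuron factor, by 0.23 and Neurod1, which follows Neurog1, by -0.01. Pou4f1 was higher in all (+)/(+) clones, the lowest at 216 against 209 in the highest (−)/(+) clone, at a limma adjusted p of 0.437.

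Of 22 neuronal genes, the class of Tubb3 and Map2, 15 were tested and 0 were called. Their differences had a median of -0.25 against -0.05 for all tested probe sets, with 12 negative and 3 positive. By unadjusted limma p, 4 were under 0.05, all lower, where 12.8% of all tested probe sets were lower. These were the neurofilament subunits Nefl and Nefm, the microtubule-associated protein Map1b and the growth cone protein Dpysl3. Nefl was also among the 3 brightest tested genes of the list, and the others were named after their values were seen. Nefl read 861, 523 and 919 in (−)/(+) clones and 484, 502 and 321 in (+)/(+) clones, a difference of -0.78 (SE 0.23, limma adjusted p = 0.0921). Clone 2 was the lowest (−)/(+) clone for Nefl and for Nefm, as it was for Nes and Neurog1. Without clone 2 both neurofilament genes passed, with adjusted p of 0.0336 and 0.0338. Of the 3 brightest tested genes of this list, Tubb2b differed by -0.28 (limma adjusted p = 0.294) and Nefl by the -0.78 given above. Stmn2 gave 0.19 on its brighter probe set and -0.33 on the other (limma adjusted p of 0.248 and 0.111).

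Glial genes gave 0 calls in 8 tested of 15 measured. GFAP, the astrocyte filament that the study stained after differentiation, was below the filter at 8.79, 13.3 and 34.0 in (−)/(+) clones and 49.3, 45.1 and 31.9 in (+)/(+) clones. Clone 6 was below clone 3, so the groups overlapped. The difference there was 0.80, against 0.11 and -0.10 on its dimmer probe sets, also below the filter. The brighter genes of the list, Glul, Cnp and Olig1, differed by -0.09, -0.04 and -0.26. Without clone 1, the myelin gene Mbp (1.24, adjusted p = 0.0266) and the progenitor factor Olig2 (-0.97, adjusted p = 0.0337) passed in opposite directions, and neither did with all clones.

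Rest and its corepressors, which hold neuronal genes silent outside neurons, were all bright enough to test, and 0 of 11 were called. Kdm1a, a histone demethylase, differed by -0.05, and the deacetylases Hdac1 and Hdac2 by 0.05 and 0.22. By unadjusted limma p, 3 genes of this list were lower and 1, Hdac2, was higher, against 21.2% of all tested probe sets in either direction. The lower ones, named after their values were seen, were the histone methyltransferase Ehmt2 (-0.51, adjusted p = 0.0706), the corepressor Rcor2 (-0.46, adjusted p = 0.0686) and the scaffold Sin3a (-0.35, adjusted p = 0.129), each without overlap between the groups. Rest itself read 3958, 4464 and 4296 in (−)/(+) clones and 4041, 3705 and 3338 in (+)/(+) clones (-0.20, SE 0.10, limma adjusted p = 0.296). Clones 5 and 6 were lowest, and clone 4 lay within the (−)/(+) range. Over the 5 neural lists together, without Rest, 56 genes were tested and 1 was called, 1.79% against 3.12% of all tested probe sets.

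**Figure D4:**
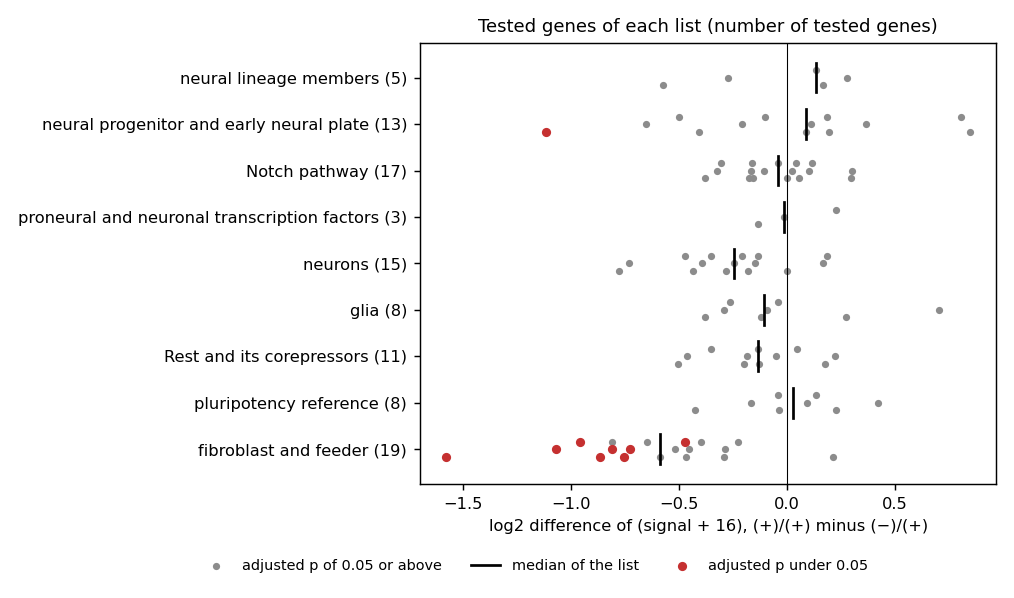
Log2 difference of signal + 16, (+)/(+) minus (−)/(+), for the tested genes of the neural lineage members and of each related list, with the number of tested genes in parentheses and the median as a black bar. Red points had a limma adjusted p under 0.05, which was so for Cdh2 in the progenitor list and for 8 fibroblast and feeder genes, all lower.

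Markers of fibroblasts and feeder cells, the other cell types that these cultures could hold, gave more calls here than any other list. Of 22, all measured, 19 were tested, 0 were higher and 8 were lower in (+)/(+) clones, against 1.77% of all tested probe sets that were lower. Their median difference was -0.59, against -0.05 for all tested probe sets. The count of 8 fell to 4 without clone 2, to 2 without clone 3, 4 or 5 and to 1 without clone 6. Without clone 1 it was 9. Lower calls over all 22518 tested probe sets moved too, from 398 to 209 without clone 2. They were 79, 113 and 63 without clone 3, 4 or 5, 25 without clone 6 and 515 without clone 1. The count of 8 became 2 with eBayes without trend, beside 178 lower calls over all tested probe sets. It became 0 by the methods' t-test after Benjamini-Hochberg adjustment, beside 1. The summed signal of the tested markers was 33989 to 43300 in (−)/(+) clones and 22719 to 26263 in (+)/(+) clones, and Col1a1, Lum and Tagln were below the filter. That sum is no amount of cells or RNA, since bright probe sets weigh most in it. The brightest were Vim (means of 12897 in (−)/(+) and 7012 in (+)/(+) clones) and Fn1 (9808 and 7443, limma adjusted p = 0.0761). By adjusted p the first was Col1a2, with 1441, 1701 and 2096 against 468, 694 and 558 (-1.58, SE 0.18, limma adjusted p = 0.00426), and the next by adjusted p were Vim (-0.87), S100a6 (-0.73) and Col3a1 (-1.07). Vim, an intermediate filament, and Cdh2 are carried by mesenchymal cells and by neural progenitors alike. The part of these cells in the values of Map2, Cdh2, Nefl and Nefm was not tested.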

How the data were processed

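RNA of 6 iPSC clones, 3 (−)/(+) and 3 (+)/(+), was hybridised by the authors to Affymetrix mouse arrays, 1 array per clone. The deposited values are MAS 5.0 signal intensity per probe set, scaled by the authors to a trimmed mean of 500 on each array (2% trimmed at each end, found from the values). No background or scan date was used, and the number of arrays limits the precision. Gene names were taken from the platform annotation: of 45037 probe sets other than 64 controls, 34945 had 1 symbol, 932 several and 9160 none, and 34741 of the first were matched to a RefSeq gene. Array medians were 75.7, 75.4 and 74.2 in clones 1 to 3 and 64.1, 70.2 and 67.6 in clones 4 to 6.

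Signals were tested as log2(signal + 16) with limma 3.58.1 in R 4.3.3 (lmFit, eBayes with trend), over the 22518 probe sets whose mean log2 value was above the median, with Benjamini-Hochberg adjustment over all of them and calls at 0.05. The offset of 16 understates changes of dim probe sets. Signals of different probe sets are not comparable as amounts of RNA, and percentiles and the receptor range were used only to describe how dim a probe set was. A gene other than a member was represented by its probe set of highest mean signal. In simulated data with 200 changed probe sets of 22518, 2.5% of 1.5-fold, 48% of 2-fold and 85.5% of 3-fold changes were recovered for this comparison. Alternatives were quantile normalization, a common median, offsets of 1 and 64, no filter, a filter at 500, eBayes without trend, arrayWeights, an average over the probe sets of each gene, the methods' t-test and leaving out each clone. The methods' t-test here is Student's t-test on signals. The cuts on fold change and average signal that the study joined to it for its differentially expressed genes were not applied. The members and lists were chosen with earlier results of these data known. Named genes were the 9 members on every probe set, Gfap, Pou5f1, Nanog and Sox2, up to 4 called genes of each other list by adjusted p or, with none called, up to 3 of highest signal, and the 3 genes most correlated with Tubb3. Any other gene named was chosen after its values were seen, as were Mbp, Olig2 and Rest. Sequences are RefSeq windows, GRCm38.p6.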

Additional observations from a re-analysis of the deposited data

How the results depend on the processing

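No paired analysis was possible because the clone numbers, 1 to 3 and 4 to 6, are not shared between the groups. No member was called under any adjusted fit or without any single clone (range 0 to 0), and by the methods' t-test 1 tested member, Map2 (-0.64), passed unadjusted and 0 after Benjamini-Hochberg. At a mean signal above 500 no member was left to test. Among tested members, signs turned for Tubb3 (-0.0044 with arrayWeights, -0.0020 without clones 1 and 4), Neurog1 (-0.045 with arrayWeights, -0.015 in both forms of the t-test) and Nes (-0.10 as the mean of its probe sets). Among members below the filter they turned for Pax6 (0.06 as the mean of its probe sets), Sox1 (-0.096 without clones 1 and 4), Hes5 (0.048 with quantile normalization, 0.025 with a common median, 0.69 with arrayWeights, 0.40 without clones 1 and 4) and Fabp7 (0.053, 0.042, 0.27 and 0.32 in the same order, 0.017 with an offset of 64 and 0.19 by t-test). Without single clones the differences ran from -0.056 to 0.28 for Tubb3 (below zero without clone 4), -0.40 to 0.43 for Neurog1 (below zero without clone 2 or 6, and 0.54 without clones 1 and 4) and -0.047 to 0.45 for Nes (below zero without clone 2), -0.38 to -0.18 for Msi1, -0.70 to -0.44 for Map2, -0.52 to -0.33 for Pax6, -0.13 to 0.77 for Sox1, -0.43 to 0.29 for Fabp7 and -0.59 to 0.33 for Hes5. Calls in the lists, first for the progenitor list (1), were 3 with a common median (2 higher), 0 with no filter, 0 above 500, 2 without trend (both lower), 5 with arrayWeights and 5 by unadjusted t-test (2 higher in each), 0 by adjusted t-test and 2 without clones 1 and 4, a setting chosen after seeing the data. For fibroblast genes (8) they were 5, 3, 4, 2 and 13 under the first 5 of these, 4 with the gene mean and 0 by adjusted t-test. For pluripotency genes (0) they were 2 with a common median, 1 with arrayWeights, 2 by unadjusted t-test and 1 without clones 1 and 4. All of these were higher except the last. For neurons (0) they were 3 with arrayWeights, all lower, and 1 by unadjusted t-test, higher. They were 2 and 3, all lower, for Rest and its corepressors (0), 2 by unadjusted t-test, both higher, for the Notch pathway (0) and 2 without clones 1 and 4, 1 in each direction, for glia (0). Without single clones the counts ran from 0 to 2 for progenitors, neurons and glia, 0 to 1 for pluripotency, 1 to 9 for fibroblast genes and 0 to 0 for Notch, proneural, Rest and tubulin genes. Over all probe sets or genes tested, the main fit called 305 higher and 398 lower. Other settings called 101 and 120 (no filter), 215 and 165 (above 500), 87 and 178 (without trend) and 1015 and 1512 (arrayWeights). Further pairs were 99 and 69 (gene mean), 1593 and 2369 (unadjusted t-test), 0 and 1 (adjusted t-test) and 535 and 527 (without clones 1 and 4). Without single clones, 27 to 446 were higher and 25 to 515 lower. Scaling to a common median moved the median difference of all tested probe sets from -0.05 to 0.10, and 79.4% of the calls (917 higher, 238 lower) were then higher in (+)/(+) clones, against 43.4% (305 higher, 398 lower). The causes were not tested.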
